A study of Mus musculus with 4 samples.

Results

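The ATP-binding cassette (ABC) family of the mouse was read out in AXT tumours with and without a knockout of HIF-1alpha. Members were taken by name: protein-coding genes of the deposited count table whose symbol is Abca to Abcg followed by a number and at most 1 further letter. The rule found 50 genes among 55487 in the table, of which 21936 are protein-coding. No measured value entered the rule.

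AXT is a mouse osteosarcoma cell line, obtained by overexpressing c-MYC in bone marrow stromal cells. Mock AXT cells (genotype WT) and AXT lines labelled as HIF-1alpha knockout (HIF-1alphaKO AXT1-1, AXT1-2 and AXT2) were grown in culture. Then 2000000 cells in matrigel were placed in C57BL/6scid mice, which lack mature T and B cells, and the tumours were taken on day 1. All groups share the line, its c-MYC overexpression, the matrigel and the host. There was 1 mock library and there were 3 libraries of knockout lines, called c11, c15 and c22 as in the table; the sources used here do not tie these names to the labelled lines. They are called knockout libraries after their labels, and where 3 values follow "against" they are those of c11, c15 and c22 in that order. The labels do not say whether tumours came from separate animals, so the spread between libraries may be partly technical.

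Most ABC proteins use the energy of ATP to move molecules across membranes, and those that do so combine membrane-spanning domains with paired nucleotide-binding domains. The best-known are the drug efflux pumps, P-glycoprotein above all, which in mice is encoded by the paralogs Abcb1a and Abcb1b and in humans by a single gene. Osteosarcoma is treated with doxorubicin, a P-glycoprotein substrate, which is why the pump has been studied in this tumour. Other members move cholesterol and phospholipids (Abca1, Abcg1, Abcb4), act in the inner membrane of mitochondria (Abcb8, Abcb10), or carry fatty acids into peroxisomes (Abcd2, Abcd3). The E and F subfamilies have no membrane domain and act on ribosomes.

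The 3 genes furthest below mock, Abcb1a, Abcb1b and Abcb4, are neighbouring paralogs on the plus strand of chromosome 5. Their upstream sequences are shown because the lines compared with mock are labelled as HIF-1alpha knockout. The hypoxia response element, the DNA element bound by HIF, has the core ACGTG or GCGTG. The 250 bases before the RefSeq start site (GRCm38.p6, plus strand) are given in lower case, with any core in capitals. Both cores found lie on the opposite strand, so they appear as their reverse complements, CACGT and CACGC. The windows are chr5:8566841-8567090 for Abcb1a, chr5:8797897-8798146 for Abcb1b and chr5:8893471-8893720 for Abcb4.
Abcb1a: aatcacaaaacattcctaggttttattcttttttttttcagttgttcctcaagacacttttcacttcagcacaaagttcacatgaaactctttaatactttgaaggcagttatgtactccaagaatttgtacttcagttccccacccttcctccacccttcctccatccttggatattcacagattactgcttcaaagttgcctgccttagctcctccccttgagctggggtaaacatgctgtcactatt
Abcb1b: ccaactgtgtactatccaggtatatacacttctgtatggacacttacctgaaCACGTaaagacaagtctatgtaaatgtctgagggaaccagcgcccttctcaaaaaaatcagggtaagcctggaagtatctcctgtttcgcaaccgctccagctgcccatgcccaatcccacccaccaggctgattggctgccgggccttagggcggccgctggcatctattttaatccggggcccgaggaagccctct
Abcb4: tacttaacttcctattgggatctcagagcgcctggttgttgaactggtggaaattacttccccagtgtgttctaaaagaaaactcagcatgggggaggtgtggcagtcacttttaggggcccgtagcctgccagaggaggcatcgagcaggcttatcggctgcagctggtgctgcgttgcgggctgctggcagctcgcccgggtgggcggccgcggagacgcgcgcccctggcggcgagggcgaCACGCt
The Abcb1b window held 1 ACGTG core, 198 bases before the start, and the Abcb4 window held 1 GCGTG core, 6 bases before it. The Abcb1a window held neither. Its RefSeq start, at 8567091, lies 93.0 kb before the start of the gene in the count table and inside the annotated span of Rundc3b on the other strand. Of 32851 RefSeq promoter windows of this length, 38.6% held at least 1 core on either strand, against 40.0% of 45 windows of ABC genes. A window was given for 38 of the 50 members. Among the tested members with a window, 13 of 26 held a core. This counts genes, some of which have several windows, so it cannot be set against the shares of windows. A match to 5 letters is a description and no proof of binding.

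Total counts ranged from 12383719 in mock to 13193264 in c15. Values are reads scaled to a common library total (CPM), using each library's own total. The SD is over the 3 knockout libraries and the SE belongs to the fitted log2 fold change, which is negative where the knockout libraries are lower. A count of 0 in mock allows up to 0.242 CPM, counting 3 reads as the limit, and this covers counting error only. Of all genes in the table, 15706 had enough reads to be tested. Hif1a RNA was at 107 CPM in mock against 104 (c11), 98.7 (c15) and 22.3 CPM (c22) (fitted log2 fold change -0.52, SE 0.78). A gene-level count of RNA does not show whether protein was made and thus tells nothing of the knockout labels of c11 and c15. The osteoblast regulators Runx2 (245 CPM in mock; 133, 139 and 116 CPM in the others) and Sp7 were counted in every library, as the labelled cell type would have them.

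Of the 50 ABC genes, 34 could be tested and 16 had too few reads. Abca14, Abca15, Abcb5, Abcc2 and Abcc8 had 0 counts in all 4 libraries. Among the tested genes, edgeR called 0 as lower and 0 as higher at an adjusted p under 0.05, where 0.00637% of all tested genes were called lower and 0.0% higher. At an unadjusted p under 0.05 edgeR had 3 ABC genes lower (background 2.56%) and 1 higher (background 1.12%). DESeq2 called 2 lower (background 0.42%) and 0 higher (background 0.306%), and limma-voom called 0 in either direction, with 3 lower (background 2.71%) and 0 higher (background 0.872%) at an unadjusted p under 0.05.

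All 3 knockout libraries lay below mock for 6 tested ABC genes, or 17.6% against 22.5% of all tested genes. They lay above mock for 7, or 20.6% against 21.0%. For the remaining 21 the knockout values spanned the mock value. The first count was 12 without c22 and the second was 11 without c15. Differences of at least 2-fold in all 3 libraries were found for 3 genes below mock, or 8.82% against 3.0% of all tested genes, and for 3 above it, or 8.82% against 2.04%. Those below were the neighbours Abcb1a, Abcb1b and Abcb4, and those above Abca8b, Abca12 and Abcb9. Without the 3 neighbours, 31 ABC genes were tested, of which 3 lay below mock (9.68%) and 7 above (22.6%). Of the 31, 0 were at least 2-fold below in all 3 libraries, and edgeR had 0 lower at an unadjusted p under 0.05. Abcb4 had enough reads to be tested only through mock, and Abca12 and Abcb9 only through knockout libraries. Reads were 0 in mock against 46, 3 and 18 for Abca12, and 2 against 9, 15 and 7 for Abcb9. The filter thus favoured the place of these genes in the counts. The median log2 fold change of the tested ABC genes was 0.13, against 0.05 over all tested genes.

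**Figure D1:**
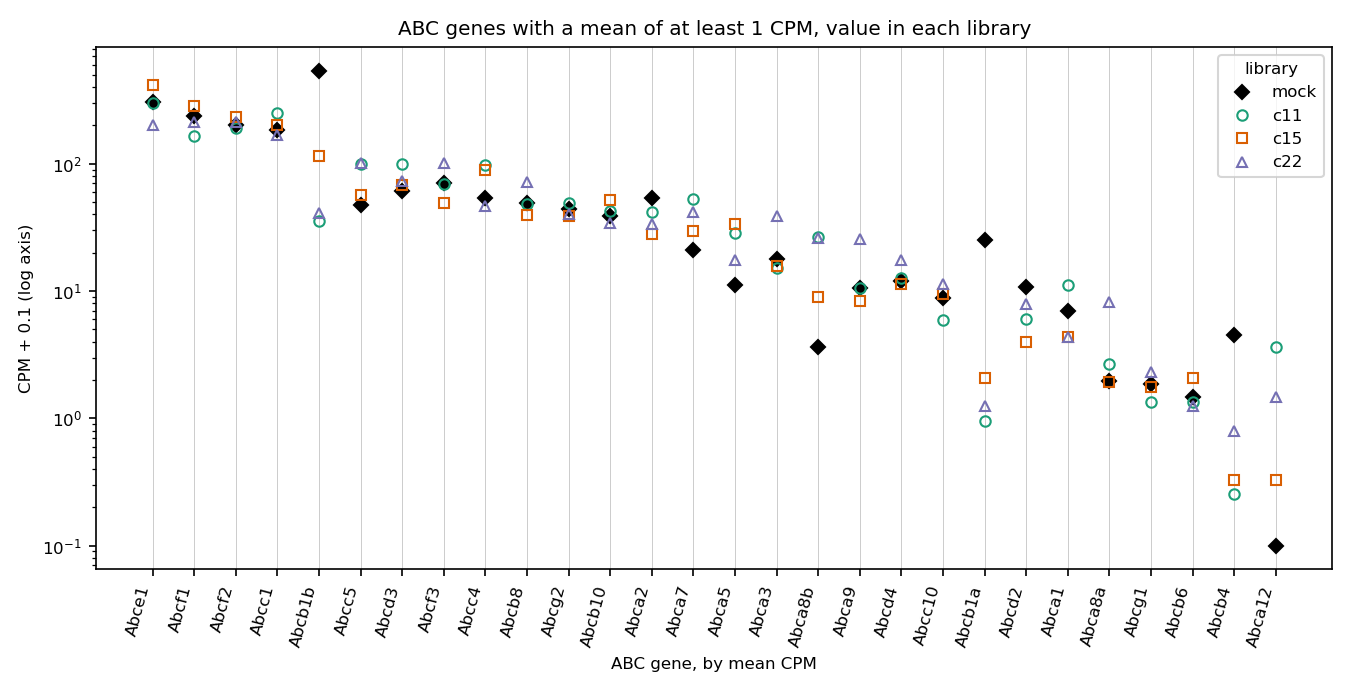
CPM plus 0.1 on a log axis for 28 ABC genes with a mean of at least 1 CPM, one symbol for each library, ordered by mean. Mock (black diamonds) stands far above the 3 knockout libraries for Abcb1b, Abcb1a and Abcb4, and below them for Abca8b and Abca12.

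Abcb1b is the form of P-glycoprotein prominent in mouse adrenal gland, pregnant uterus and many cultured cell lines. It was at 538 CPM in mock against 35.7 (c11), 116 (c15) and 40.7 CPM (c22). All 3 knockout values were far below mock, and c15 was the highest of them. Mock stood 8.40-fold above the knockout mean of 64.0 ± 44.8 CPM (SD, n = 3). A log2 fold change of -3.06 (SE 0.64) was fitted, which missed the threshold in edgeR (adjusted p = 0.419) and passed it in DESeq2 (adjusted p = 0.00316). The edgeR value ranged from -2.77 without c11 to -3.81 without c15.

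Abcb1a, the form that makes the drug barrier of brain capillaries and gut, was at 25.0 CPM in mock against 0.852 (c11), 1.97 (c15) and 1.15 CPM (c22). These are 310 reads against 11, 26 and 15, and the groups did not overlap. Mock stood 18.9-fold higher, with an exact 95% counting interval of 14.0 to 25.8 for the pooled reads. The fit gave a log2 fold change of -4.22 (SE 0.53; edgeR adjusted p = 0.214, DESeq2 adjusted p = 5.8e-05).

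Abcb4 encodes the transporter that places phosphatidylcholine in bile. It was at 4.44 CPM in mock against 0.155 (c11), 0.227 (c15) and 0.688 CPM (c22), or 55 reads against 2, 3 and 9. The ratio of mock to the pooled knockout reads was 12.4, with a counting interval of 6.82 to 24.2. Its log2 fold change of -3.60 (SE 0.76) passed neither edgeR (adjusted p = 0.384) nor DESeq2 (adjusted p = 0.79).

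The paralogs share sequence, which limits how far their counts can be separated. Of all 50-base stretches in the exons of Abcb1a, 16.3% also occur in those of Abcb1b and 2.33% in those of Abcb4. Of those of Abcb1b, 11.1% occur in Abcb1a. With both P-glycoprotein genes summed, the value was 563 CPM in mock against 36.6 (c11), 118 (c15) and 41.9 CPM (c22), and the log2 fold change was -3.10 (SE 0.63), an alternative chosen after the data were seen. The ratio of Abcb1b reads to Abcb1a reads, not corrected for length, was 21.5 in mock against 41.9, 58.7 and 35.5.

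Per kilobase of exon, Abcb1b was the second most abundant ABC transcript in mock, at 67.3 CPM per kb after Abcf2 at 77.9. In the mean of the knockout libraries it ranked 11th, at 8.02 ± 5.60 CPM per kb (SD, n = 3). The ribosome-associated genes Abcf2, Abce1 and Abcf1 held the first 3 places in the knockout libraries, led by Abcf2 at 82.9 ± 8.28 CPM per kb and Abce1 at 51.0 ± 17.9 CPM per kb.

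The summed RNA of all 50 genes was 2111 CPM in mock against 1744 (c11), 1889 (c15) and 1617 CPM (c22). The 3 chromosome 5 genes made up 26.9% of it in mock and 2.11%, 6.24% and 2.63% in the knockout libraries. Without them the sum was 1544 CPM in mock against 1707, 1771 and 1574 CPM, so mock went from the highest of the 4 libraries to the lowest. Abcb1b alone supplied 25.5% of the mock total, or 18.2% when levels are taken per kilobase of exon.

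**Figure D2:**
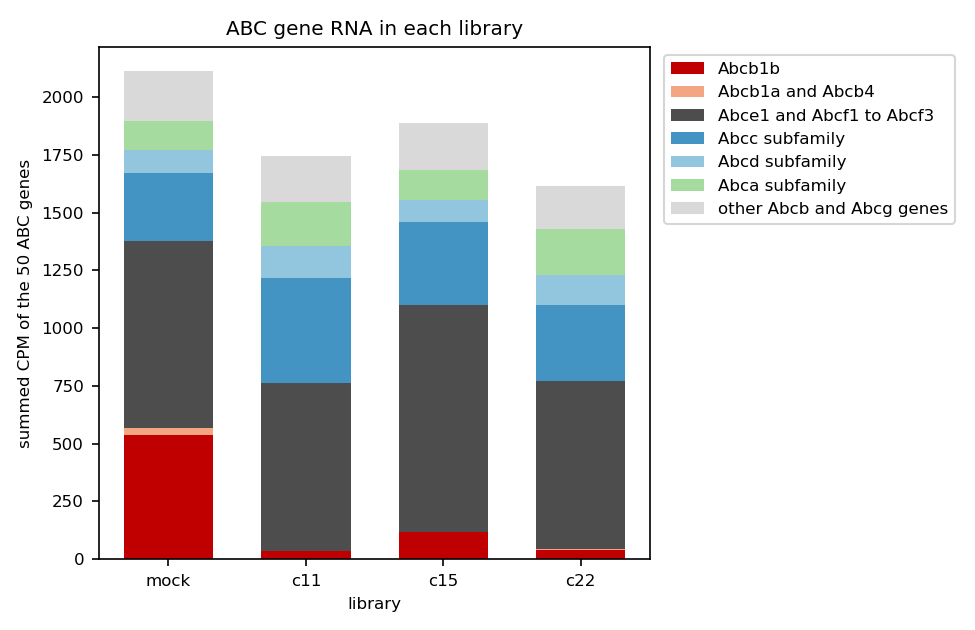
Summed CPM of the 50 ABC genes in each of the 4 libraries, stacked by gene or subfamily. Abcb1b fills 25.5% of the mock bar and between 2.05% and 6.12% of the others, while the remaining segments sum to similar heights.

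The genes around Abcb1a were then listed by position, from 3 Mb before to 3 Mb after its start. Of 105 genes there, 20 could be tested and 17 of these lay below mock in all 3 knockout libraries, against 22.5% of all tested genes, while 0 lay above. At least a 2-fold difference in every library was seen for 14, against 3.0% of all tested genes. The median log2 fold change was -2.50, and -2.41 without the ABC genes. Without them 17 were tested, 14 lay below mock in all 3 knockout libraries, 11 at least 2-fold, and DESeq2 called 8. edgeR called 0 of the 20 at an adjusted p under 0.05, had 16 at an unadjusted p under 0.05, all lower, and DESeq2 called 10. With limma-voom 0 were called and 14 had an unadjusted p under 0.05. Abcb4, Gm42686 and Gm37153 had enough reads to be tested only through mock, so the filter favoured their place on the lower side.

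The ABC genes sat in the middle of an unbroken series of 13 tested genes, each at least 2-fold below mock in every knockout library. It ran from Sri to Tmem243 (chromosome 5, 8046078 to 9160986, GRCm38), a length of 1.11 Mb, with 10 protein-coding genes, 7 genes on the plus strand and 6 on the minus strand. Of 26 genes of the table lying wholly within that span, these 13 had enough reads to be tested. Genes were ordered by start. Dmtf1, also tested, starts inside the span and ends just past it, and it was less than 2-fold below mock. Looking for such series was decided after the values were seen. Abcb4, Gm42686 and Gm37153 had enough reads to be tested only through mock, so the filter favoured their place in the series. Over the whole genome it was the longest of its kind: there were 8 series of at least 3 genes, and the next longest held 4. One of those, from 9330182L06Rik to Gm43719, lies further along the same chromosome, separated by Dmtf1 and Gm7332. As a share of mock, the median over the 13 genes was 9.62% (c11), 12.5% (c15) and 16.5% (c22). Tested genes on the rest of chromosome 5 (1021 genes) had a median log2 fold change of 0.17.

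**Figure D3:**
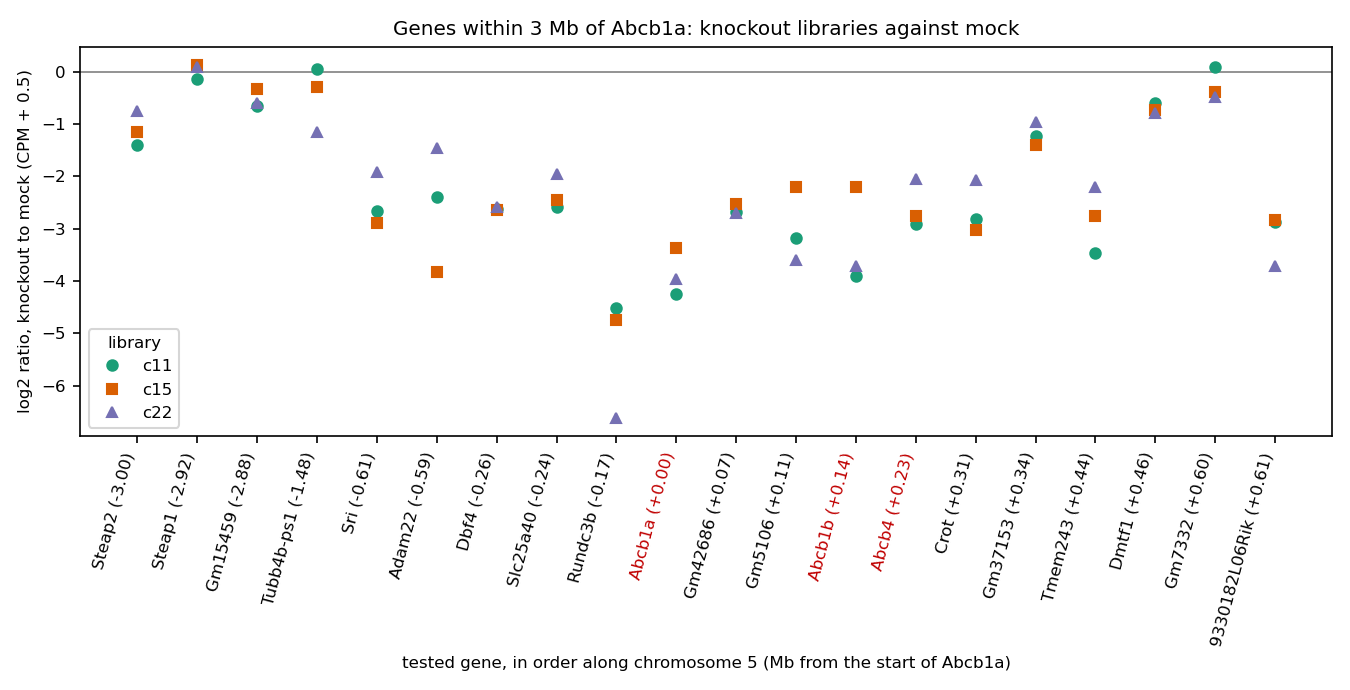
Log2 ratio of each knockout library to mock (CPM with 0.5 added) for the 20 tested genes within 3 Mb of Abcb1a, in chromosomal order, with the distance of each gene's start from that of Abcb1a in Mb. From Sri to Tmem243 every point lies below 0, and ABC genes are printed in red.

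Before the pumps in this series comes Sri, the gene of sorcin, a calcium-binding protein first found in drug-resistant cells. It was at 504 CPM in mock against 79.5 (c11), 67.7 (c15) and 134 CPM (c22) (log2 fold change -2.42, SE 0.42; edgeR adjusted p = 0.314, DESeq2 adjusted p = 0.000815). Adam22, a membrane protein gene of the nervous system, was at 18.5 CPM against 3.10, 0.834 and 6.42 CPM. Dbf4, which activates the replication kinase Cdc7, was at 987 CPM against 160, 158 and 163 CPM. The knockout values of Dbf4 were nearly the same in the 3 libraries, whereas those of Adam22 differed by several fold. In cell lines selected with drugs, P-glycoprotein genes and their neighbours, Sri among them, are known to be amplified together. Only RNA was counted here, and the number of gene copies was not tested.

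Slc25a40, a mitochondrial carrier gene, was at 120 CPM in mock against 19.7 (c11), 21.5 (c15) and 30.7 CPM (c22). Rundc3b, which overlaps the RefSeq start of Abcb1a, had the largest difference of the series, 93.7 CPM in mock against 3.64, 3.03 and 0.459 CPM (log2 fold change -5.30, SE 0.66; edgeR adjusted p = 0.214, DESeq2 adjusted p = 3.76e-06). Its lowest value was in c22, where Sri, Adam22, Slc25a40, Crot and Tmem243 had their highest knockout value. Of the 13 genes, 8 were highest in c22 among the knockout libraries, 4 in c15 and 1 in c11. Abcb1a and Abcb1b were among those highest in c15.

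Past the pumps lies Crot, which encodes carnitine octanoyltransferase of peroxisomes. It was at 335 CPM in mock against 47.0 (c11), 40.8 (c15) and 79.4 CPM (c22) (log2 fold change -2.58, SE 0.42; edgeR adjusted p = 0.272, DESeq2 adjusted p = 0.000252). Tmem243, a small membrane protein gene, was at 137 CPM against 11.9, 19.9 and 29.4 CPM. Dmtf1, a transcription factor gene that overlaps most of Tmem243, was closer to mock, at 124 CPM against 81.1, 74.7 and 71.7 CPM (log2 fold change -0.70, SE 0.28). Beyond it 9330182L06Rik was at 119 CPM against 15.8, 16.1 and 8.56 CPM (log2 fold change -3.13, SE 0.40; edgeR adjusted p = 0.214). On the other side Steap2, a metalloreductase gene, was at 263 CPM against 98.8, 118 and 156 CPM, and its neighbour Steap1 was at 70.5 CPM against 63.9, 77.3 and 75.4 CPM. Just past the 3 Mb limit on that side, and named after their values were seen, Gtpbp10 was at 167 CPM against 56.1, 40.9 and 34.2 CPM (edgeR adjusted p = 0.332, DESeq2 adjusted p = 0.00334) and Cldn12 at 226 CPM against 83.7, 66.5 and 78.4 CPM (edgeR adjusted p = 0.336, DESeq2 adjusted p = 0.00432).

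Transcripts annotated on the opposite strand of the pump genes were also below mock. Gm5106, antisense to Abcb1b, was at 30.6 CPM in mock against 2.94 (c11), 6.29 (c15) and 2.06 CPM (c22), with c15 highest as for Abcb1b. Gm42686, inside Abcb1a, had 46 reads in mock and 2, 3 and 2 in the knockout libraries, and 8.37% of the 50-base stretches of Abcb1a occur in it. The library kit marks strand, but the sources used here do not give the strand setting of the counting, so reads of these pairs cannot be told apart with certainty.

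Markers of other cell types were read in the same libraries, where 22.5% of all tested genes lay below mock in all 3 knockout libraries and 21.0% above. Macrophage markers summed to 751 CPM in mock and 229 to 383 CPM in the knockout libraries, with 7 of 8 below mock in all 3. Endothelial markers summed to 17.0 CPM against 2.14 to 8.52 CPM, with 3 of 4 tested markers (9 listed) below mock and Tie1 at 0 counts in all libraries. Skeletal muscle markers summed to 109 CPM against 1.44 to 21.8 CPM (8 of 8 below), and erythroid markers to 116 CPM against 1.63 to 41.1 CPM (5 of 5 tested, 7 listed). Some muscle and erythroid markers may have had enough reads to be tested only through mock, which would favour their place below it. Fibroblast markers summed to 121 CPM against 30.1 to 107 CPM, with 2 of 6 tested below and 4 spanning mock. Neutrophil markers summed to 6.54 CPM against 3.87, 13.6 and 14.8 CPM, with 0 of 4 tested below and 1 above, and Ly6g at 0 in all. Of 10 osteoblast lineage markers 6 were below and 1 above, and their sum was 4289 CPM in mock and highest in c22, at 8780 CPM. In bulk RNA, fewer cells of a type and less RNA per cell cannot be told apart, and the part of these cells in the values of the ABC genes was not tested.

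No other tested drug efflux pump lay below mock in all 3 knockout libraries. Abcc1 (MRP1), which exports glutathione conjugates, was at 183 CPM in mock against 250 (c11), 203 (c15) and 169 CPM (c22) (log2 fold change 0.18, SE 0.33). Abcg2, the breast cancer resistance protein gene, was at 43.7 CPM against 48.6, 39.0 and 40.1 CPM (log2 fold change -0.03, SE 0.33). Both spanned the mock value. Abcc4 (MRP4), an exporter of cyclic nucleotides and prostaglandins, was at 53.5 CPM against 97.7, 88.5 and 46.2 CPM, with c22 under the mock value. Abcc5 (MRP5), a related exporter of cyclic nucleotides, was at 47.6 CPM against 98.7, 56.4 and 102 CPM, all above mock (log2 fold change 0.85, SE 0.45; edgeR adjusted p = 1). Abcc10 spanned mock, and Abcc3 and Abcc12 had too few reads to test.

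Per kilobase of exon, Abcb1b stood far above Abcc1 in mock, at 67.3 against a level of 12.1 CPM per kb. In the knockout libraries Abcb1b was at 4.47 (c11), 14.5 (c15) and 5.10 CPM per kb (c22), and Abcc1 at 16.6 (c11), 13.5 (c15) and 11.2 CPM per kb (c22). Abcc1 was thus the higher in c11 and c22, and the levels were close in c15. The group's 10 genes summed to 900 CPM in mock against 538 (c11), 515 (c15) and 410 CPM (c22). Of these sums, Abcb1a and Abcb1b made up 563 CPM in mock against 36.6, 118 and 41.9 CPM. The lower sums in the knockout libraries thus came from these P-glycoprotein genes and not from the rest of the group. The group's median log2 fold change over 7 tested genes was 0.03.

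Among lipid transporters, of 13 tested genes, 4 were above mock in all 3 libraries (30.8%, against 21.0% of all tested genes), 2 below (15.4% against 22.5%) and 7 spanned it. The median log2 fold change was 0.78, also with Abca12, which has no mock reads, set at the lower bound of its difference. This median is the fitted value of Abca4 (SE 1.44), which had 4 reads in mock against 12, 1 and 9. Library by library, after 0.5 was added to each CPM, the group's median log2 difference from mock was 0.37 (c11), -0.07 (c15) and 0.98 (c22). The group median in c15 was thus not above mock. For the 13 genes edgeR called 0, with 1 higher and 1 lower at an unadjusted p under 0.05 (background 1.12% and 2.56%). DESeq2 and limma-voom called 0. Abca8b, a transporter linked to cholesterol export, was at 3.55 CPM in mock against 26.5 (c11), 8.87 (c15) and 25.9 CPM (c22). All 3 values were above mock, c15 least. A log2 fold change of 2.52 was fitted (SE 0.86; edgeR adjusted p = 1, and from 0.131 to 1 over the alternatives tried). It was the only ABC gene on the higher side at an unadjusted p under 0.05 in edgeR.

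The cluster on chromosome 11 (109932190 to 110337716) holds Abca8b, Abca8a, Abca9, Abca6 and Abca5 in that order, 4 of them tested, and its genes did not follow 1 pattern. Abca5, a lysosomal lipid transporter gene, was at 10.98 CPM in mock against 28.3 (c11), 33.4 (c15) and 17.4 CPM (c22) (log2 fold change 1.27, SE 0.52; edgeR adjusted p = 1), with c22 the lowest. Abca8a was at 1.86 CPM against 2.56, 1.82 and 8.10 CPM, and Abca9 at 10.4 CPM against 10.4, 8.19 and 25.7 CPM. Abca8a and Abca9 were thus near mock in c11 and c15 and above it in c22. Abca6 had too few reads to test.

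Abca7, which moves phospholipids and is a risk gene for Alzheimer disease, was at 20.9 CPM in mock against 52.5 (c11), 29.6 (c15) and 41.8 CPM (c22) (log2 fold change 0.98, SE 0.45; edgeR adjusted p = 1). Abca12, which loads lipids into the granules of skin cells, had 0 reads in mock and 46, 3 and 18 reads in c11, c15 and c22. Against the limit of 3 reads in mock the knockout mean was at least 7.11-fold higher, but the value of c15 is itself at that limit. Of 5 keratinocyte markers, Krt1 and Krt5 had 0 counts in all libraries. The 5 markers summed to 4.52 CPM in mock against 3.49 (c11), 4.78 (c15) and 3.21 CPM (c22). Of the 2 tested, 1 was below and 1 above mock in all 3 knockout libraries (22.5% and 21.0% of all tested genes). Abca2, a lysosomal transporter gene of myelin-forming cells, was at 54.0 CPM against 41.4, 27.9 and 33.3 CPM (log2 fold change -0.66, SE 0.35; edgeR adjusted p = 1).

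The cholesterol exporters Abca1 and Abcg1, known targets of the sterol-sensing receptor LXR, spanned mock. Abca1 was at 6.86 CPM in mock against 11.1 (c11), 4.24 (c15) and 4.28 CPM (c22) (log2 fold change -0.07, SE 0.73), and its sign changed when c15 or c22 was left out. Abcg1 was at 1.78 CPM against 1.24, 1.67 and 2.22 CPM. Abca3, known for surfactant lipids in lung, was at 17.7 CPM against 15.03, 15.7 and 38.6 CPM, again with c22 apart; its antisense neighbour D330041H03Rik shares 8.16% of its 50-base stretches.

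Of 7 tested half-transporters of mitochondria, lysosomes and peptide loading, 1 was below and 1 above mock in all knockout libraries, with a median log2 fold change of 0.12. Abcb8, a mitochondrial transporter, was at 48.9 CPM in mock against 47.9 (c11), 39.6 (c15) and 71.5 CPM (c22), and Abcb10, linked to heme synthesis, at 39.0 CPM against 42.5, 51.9 and 33.9 CPM. Neither of these lay on 1 side of mock. Abcb9, a lysosomal peptide transporter, was above mock in all 3 but at few reads, 0.162 CPM against 0.697, 1.14 and 0.535 CPM. Abcb6, linked to porphyrin transport, was at 1.37 CPM against 1.24, 1.97 and 1.15 CPM. The related peptide transporters of antigen presentation, whose symbols the naming rule does not take, were highest in c22: Tap1 was at 3.88 CPM against 3.49, 4.93 and 12.4 CPM, and Tap2 at 4.68 CPM against 2.01, 2.88 and 9.56 CPM.

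Among peroxisomal members Abcd3 (PMP70), a carrier of branched and dicarboxylic acyl-CoA, was at 60.8 CPM in mock against 99.0 (c11), 67.9 (c15) and 73.1 CPM (c22) (log2 fold change 0.40, SE 0.36; edgeR adjusted p = 1). Abcd2, a carrier of very long-chain fatty acids, was at 10.7 CPM against 5.96, 3.87 and 7.87 CPM (log2 fold change -0.86, SE 0.55; edgeR adjusted p = 1). The first was above mock in every knockout library and the second below it. Abcd4, a lysosomal member needed for vitamin B12, spanned mock.

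None of the 4 ribosome-associated members lay on 1 side of mock in all knockout libraries. Abce1, which splits ribosomes after termination, was at 304 CPM in mock against 299 (c11), 417 (c15) and 202 CPM (c22). Abcf1, which helps initiation, was at 236 CPM against 165, 283 and 214 CPM. Abcf2 was at 200 CPM against 192, 235 and 212 CPM, and Abcf3 at 70.2 CPM against 69.7, 49.3 and 101 CPM. They had fitted log2 fold changes between -0.09 and 0.09. Their sum was 810 CPM in mock against a knockout mean of 813 ± 148 CPM (SD, n = 3).

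The remaining members had few reads. Abca4, Abcg3 and Abcg4 were tested and spanned mock. Abca13, Abca16, Abca17, Abcb11, Abcc6, Abcc9, Abcg5 and Abcg8 had too few reads to test in these tumours. Among them are the bile salt pump Abcb11 and the sterol half-transporters Abcg5 and Abcg8, which are known from liver and gut.

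**Figure D4:**
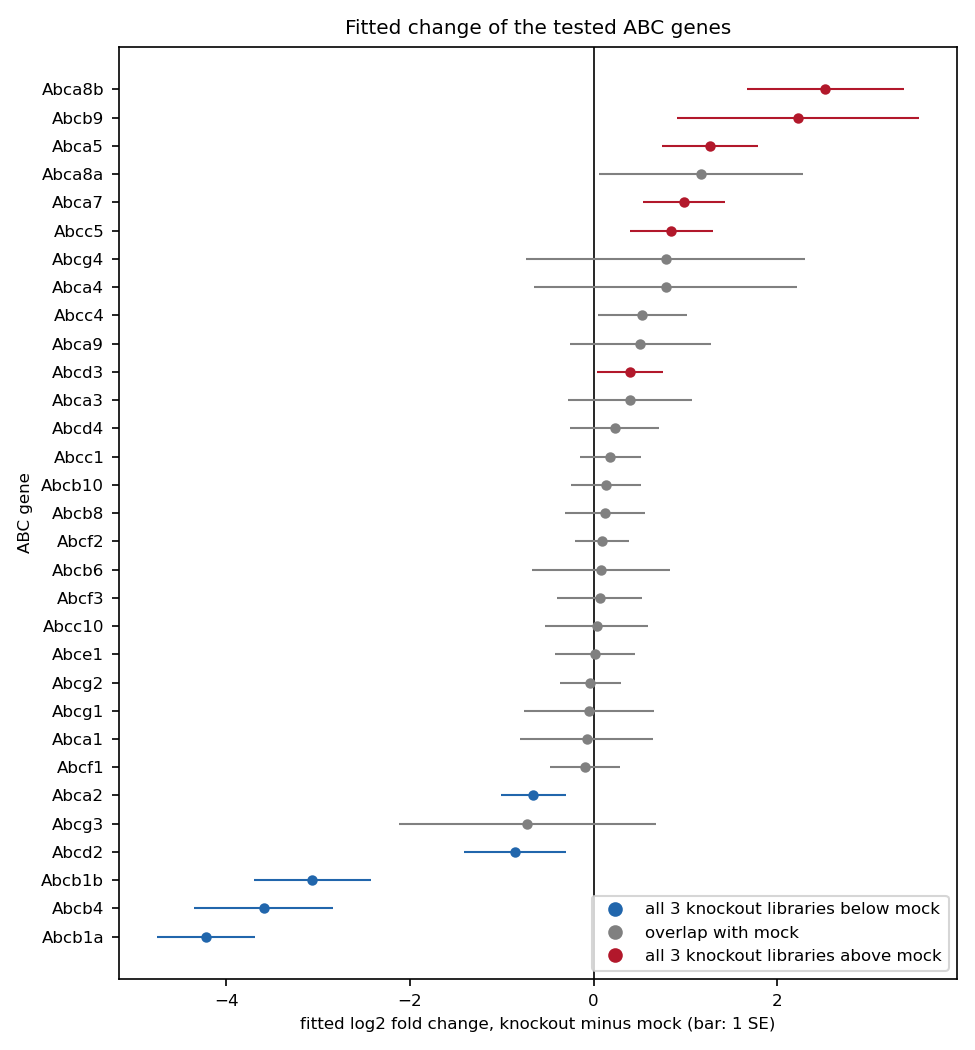
Fitted log2 fold change (knockout minus mock) with 1 SE for 31 tested ABC genes; Abca12 is not drawn because its mock count is 0. Blue marks genes with all 3 knockout libraries below mock, red those above and grey those that overlap. Abcb1a, Abcb4 and Abcb1b lie between -4.22 and -3.06, and the remaining genes between -0.86 and 2.52.

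Lists of genes that work with these transporters were read the same way, and edgeR called 0 genes of any of the 6 lists at an adjusted p under 0.05. limma-voom also called 0 in each list. Over all tested genes, 22.5% lay below and 21.0% above mock in all 3 knockout libraries, and 2.56% were lower and 1.12% higher at an unadjusted p under 0.05 in edgeR. In the LXR and sterol list, 3 of 18 tested genes were below (16.7%) and 3 above mock (16.7%) in all knockout libraries, and 0 had an unadjusted p under 0.05. The apolipoprotein gene Apoe was at 56.8 CPM against 17.5, 31.4 and 38.0 CPM, and Npc1, which releases cholesterol from lysosomes, at 26.0 CPM against 60.1, 40.8 and 39.1 CPM. Both are named as the extremes of the list, and neither passed edgeR or DESeq2.

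Of 13 tested xenobiotic receptor and drug metabolism genes, 4 were below (30.8%) and 3 above mock (23.1%) in all knockout libraries. Nqo1, a quinone reductase gene and target of the oxidant sensor Nrf2, was at 4.36 CPM in mock against 24.9 (c11), 8.19 (c15) and 20.5 CPM (c22) (log2 fold change 2.03, SE 0.80). It was the 1 gene of the list with an unadjusted p under 0.05 in edgeR, and DESeq2 called 0. Of 20 tested glutathione genes, 5 were below (25.0%) and 4 above (20.0%), with a median log2 fold change of -0.17. Slc7a11, the cystine importer gene, was at 46.8 CPM against 82.0, 115 and 90.4 CPM, and Chac1, which degrades glutathione, at 17.0 CPM against 63.0, 70.5 and 36.1 CPM (log2 fold change 1.74, SE 0.51). Gstk1, a glutathione transferase gene, was at 2.42 CPM against 1.08, 0.303 and 0.306 CPM (log2 fold change -2.09, SE 0.84). In this list 3 genes were higher and 1 lower at an unadjusted p under 0.05, and DESeq2 called 0.

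Of 24 tested peroxisome genes, 4 were below (16.7%) and 5 above mock (20.8%) in all knockout libraries, and the median log2 fold change was 0.06. At an unadjusted p under 0.05 edgeR had 2 lower and 0 higher. The lowest was Crot, the neighbour of Abcb4, the only gene of this list that DESeq2 called. Next came Pex26, a peroxisome import factor, at 17.6 CPM against 6.12, 5.08 and 6.73 CPM. Of 24 heme and iron-sulphur genes, 5 were below (20.8%) and 6 above (25.0%), with a median of 0.09 and 1 gene at an unadjusted p under 0.05, on the lower side. Here too the lowest, and the only one called by DESeq2, was a gene of the chromosome 5 series, Slc25a40. Hmox1, which breaks down heme, was highest in this list, at 55.6 CPM in mock against 91.9 (c11), 191 (c15) and 73.6 CPM (c22) (log2 fold change 1.10, SE 0.62). Of 20 ribosome recycling and initiation genes, 3 were below and 6 above with a median of 0.01, and 0 had an unadjusted p under 0.05.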

How the data were processed

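Poly(A) RNA of 4 tumour libraries (1 mock, 3 HIF-1alpha knockout) was counted. The authors deposited raw read counts for each Ensembl gene. The submitters' processing notes name GRCm38 and the tools HISAT2 2.1.0, featureCounts 1.6.3, Trimmomatic 0.38, FastQC 0.11.7 and SAMtools 1.9. Strand and multimapping settings are not given in the sources used here. Columns c11, c15 and c22 were used as 3 libraries of 1 group. No 2 libraries were copies of each other (chi-square per gene 46.0 to 86.0 between pairs).

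CPM was computed from each column's total. Genes kept by filterByExpr (15706, holding 99.9% of counts) were scaled by TMM and tested with the robust 2-sided quasi-likelihood test of edgeR 4.0.16 (R 4.3.3), and p-values were adjusted by Benjamini-Hochberg over all of them. The mock library, having no replicate, was taken to vary like the knockout libraries (2 residual degrees of freedom, prior 3.77, biological coefficient of variation 0.442). DESeq2 1.42.0, limma-voom 3.58.1, other scalings and filters, leaving out or summing knockout libraries, and 2 later alternatives were tried. The fit was also run on simulated data. Exon lengths and overlaps come from GENCODE M21, whose coordinates were identical for all 50 members, and promoters from RefSeq.

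Named were members with a mean of at least 1 CPM, on 1 side of mock with a log2 fold change of at least 1 in size, the 10 highest and 5 most variable others, protein-coding neighbours of at least 1 CPM within 3 Mb, the 2 highest and 2 lowest of each pathway list (some given here), and Hif1a, Tap1, Tap2 and Cftr (0 counts in all libraries). Genes outside this rule (the remaining members, Gm transcripts, Runx2, Sp7) were named after their values were seen. Members and lists were chosen with earlier results of these data known. For 3 genes that enter the counts, no values are reported here, and those that are members are left out of the plots of single genes.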

Additional observations from a re-analysis of the deposited data

How the results depend on the processing

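With 1 mock library the precision rests on the spread of 3 knockout libraries, and low counts limit Abcb4, Abca12, Abcb9 and the untested members. No paired analysis was possible because there is only 1 mock library and the columns carry no replicate number. Abcb1a, Abcb1b and Abcb4 kept a negative log2 fold change in all alternatives run, from -4.63 to -3.98, -3.81 to -2.77 and -4.47 to -3.23. Their adjusted p ranged from 5.8e-05 to 0.948, from 0.00316 to 1 and from 0.368 to 1. DESeq2 called 48 genes higher and 66 lower over all genes, against 0 and 1 in edgeR, with 2 ABC genes and 10 genes within 3 Mb of Abcb1a among the lower. The count over all genes on the lower side was 0 with limma-voom, with the legacy quasi-likelihood dispersion (added after the data were seen), with any 1 knockout library left out (0 to 0) or any pair of them summed, and 4 with no filter. ABC genes below mock in all knockout libraries numbered 9 to 12 with 1 library left out (12 without c22), and those above mock 9 to 11 (11 without c15). Such counts rise with fewer libraries for any set of genes, so nothing about c22 or c15 is drawn from them. Signs turned for values near 0, and also for Abca3 (0.40, SE 0.68 in the main fit) and Abca9 (0.51, SE 0.77). The sign of the last 2 turned when c22 was left out. With 1 library left out, the log2 fold change ranged from -0.67 to 0.15 for Abca1 (0.15 without c15 and without c22). With the low end from leaving out c22, it ranged from -0.21 to 0.64 for Abca3, -0.17 to 0.80 for Abca9, -0.17 to 0.29 for Abcb8, -0.24 to 0.29 for Abcf3 and -0.94 to 0.43 for Tap2. It ranged from -0.28 (without c15) to 0.23 for Abce1, -0.31 to 0.091 (without c11) for Abcf1 and -0.014 (without c15; -0.0025 without c22) to 0.13 for Steap1. With c15 and c22 summed, values were 0.070 for Abca1, -0.0094 for Abce1, -0.020 for Steap1 and -0.093 for Tap2. With c11 and c22 summed they were -0.065 for Abcf3 and -0.079 for Tap2, and with c11 and c15 summed -0.12 for Abce1. limma-voom gave -0.045 for Abce1 and -0.29 for Tap2, and upper quartile scaling -0.015 for Abce1. The cause of these turns was not tested.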
